A study of Mus musculus with 6 samples.

Results

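The machinery by which the proximal tubule takes filtered protein back from the urine was examined in the kidneys of LPR mice and their control MRL mice through 6 genes: Lrp2, Cubn, Amn, Dab2, Clcn5 and Lgmn. They were chosen by function from the 36870 names on the array, with earlier results of these data known. Every probe that carries the name of any of them was taken, which gave 15 of the 56605 probes that are not controls. Lrp2 had 5 probes, Dab2 had 4, Clcn5 had 3, and Cubn, Amn and Lgmn had 1 each. Probes of the same gene read the same or related transcripts and are not independent of each other. MRL mice were MRL/MpJ, and LPR mice were MRL/MpJ-Fas lpr/lpr, a lupus model of the same background that is homozygous for the lpr allele of the death receptor gene Fas. Total RNA from the whole kidney was measured in 3 female mice of each strain at 6 months of age, with no treatment named in the labels. Each mouse gave 1 array. Where a whole organ is measured, fewer cells of a type and less RNA per cell cannot be told apart.

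Megalin, the product of Lrp2, and cubilin, the product of Cubn, are very large receptors on the brush border that bind albumin, vitamin-binding proteins and many other filtered proteins. Cubilin has no membrane anchor of its own and reaches the cell surface with amnionless, the product of Amn. The adaptor DAB2 links the tail of megalin to the clathrin coat, and the chloride-proton exchanger ClC-5, the product of Clcn5, takes part in the acidification of the endosomes in which receptor and ligand part. Legumain, the product of Lgmn, is an asparaginyl endopeptidase of the lysosome, where the ligands are broken down. Loss of these receptors or of ClC-5 is known to give low-molecular-weight proteinuria.

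The array measured each gene at places that differ in what they can show. Of the 15 probes, 11 list at least 1 RefSeq transcript in the array annotation and 4 list none. The probes are 60 bases long, and 4 of them cover more than that on the mouse genome build mm9, so that they match only when the sequence between is removed. These 4 are shown because they read spliced RNA of Lrp2, Amn and Dab2. The Lrp2 probe runs over chr2:69345884-69346029 on the minus strand, the Amn probe over chr12:112514095-112514243 on the plus strand, and the Dab2 probes over chr15:6374197-6374640 and chr15:6366964-6368258 on the plus strand. They are written 5' to 3' as the array annotation gives them.
Lrp2 A_51_P174921: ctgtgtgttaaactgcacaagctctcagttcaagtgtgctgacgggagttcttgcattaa
Amn A_51_P343350: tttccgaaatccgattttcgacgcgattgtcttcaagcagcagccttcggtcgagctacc
Dab2 A_52_P17534: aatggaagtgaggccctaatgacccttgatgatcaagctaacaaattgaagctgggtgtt
Dab2 A_55_P2639170: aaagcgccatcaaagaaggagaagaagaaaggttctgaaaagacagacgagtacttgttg

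The values are log2 intensities after subtraction of the 75th percentile of each array, so that 0 is the intensity below which 75% of the spots lie. A change is the mean of the LPR mice minus the mean of the MRL mice on that scale, and was tested by limma with Benjamini-Hochberg adjustment over the 39924 probes that the scanner software called well above background on 3 or more arrays. All 15 probes were well above background on all 6 arrays, none was saturated, and all were tested. The probe with the highest mean signal stands for a gene. The brightness of a probe depends on its sequence, so the level of a probe was not set against that of another to compare transcripts, and means and sums over a list were compared only between mice.

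The share of spots called well above background was 69.6% to 73.5% per array, and the arrays of a strain correlated with each other at 0.990 to 0.993 and with those of the other strain at 0.961 to 0.971. The first number at the end of the array names, read here as a place on the slide, was 1 for the 3 MRL mice and LPR 1 and was 2 for LPR 2 and LPR 3. A fit with the place as a term therefore compares LPR 1 alone with the 3 MRL mice, as does the first place alone. Both forms give the same change, and the loss of a call there cannot show an effect of the place. LPR 1 had the highest 75th percentile, 942 against 706 to 759 on the others. The brighter probe of Fas did not pass the test in limma (change -0.47, adjusted p = 0.234). The dimmer Fas probe A_52_P73385 was above background in no MRL mouse and in all 3 LPR mice, whose mean was at least 1.47-fold higher. It entered the test only through the LPR mice, and just 0.31% of the tested probes were as dim or dimmer. No call is therefore drawn from it. The label kidney was checked against 12 proximal tubule markers, which were well above background in every mouse.

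All 15 probes of the 6 genes gave lower mean values in LPR mice than in MRL mice, and 4 of them passed the test, all of them lower. The median change of the 15 was -0.39 on the log2 scale, with a range from -0.90 to -0.05. Over all tested probes, 68.6% had a change below 0, the median was -0.14, 6.17% were called lower and 6.53% higher. Of the 15, 14 lay below that median. By the brightest probe of each gene, Lrp2 and Clcn5 were lower in LPR mice, and Cubn, Amn, Dab2 and Lgmn did not pass, while 5.47% of 25805 genes were lower by the same rule and 7.12% higher. The LPR mice lay below all MRL mice without overlap for 13 of the 15 probes, as they did for 26.9% of all probes. The 2 probes whose groups overlapped were those of Amn and Lgmn.

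**Figure D1:**
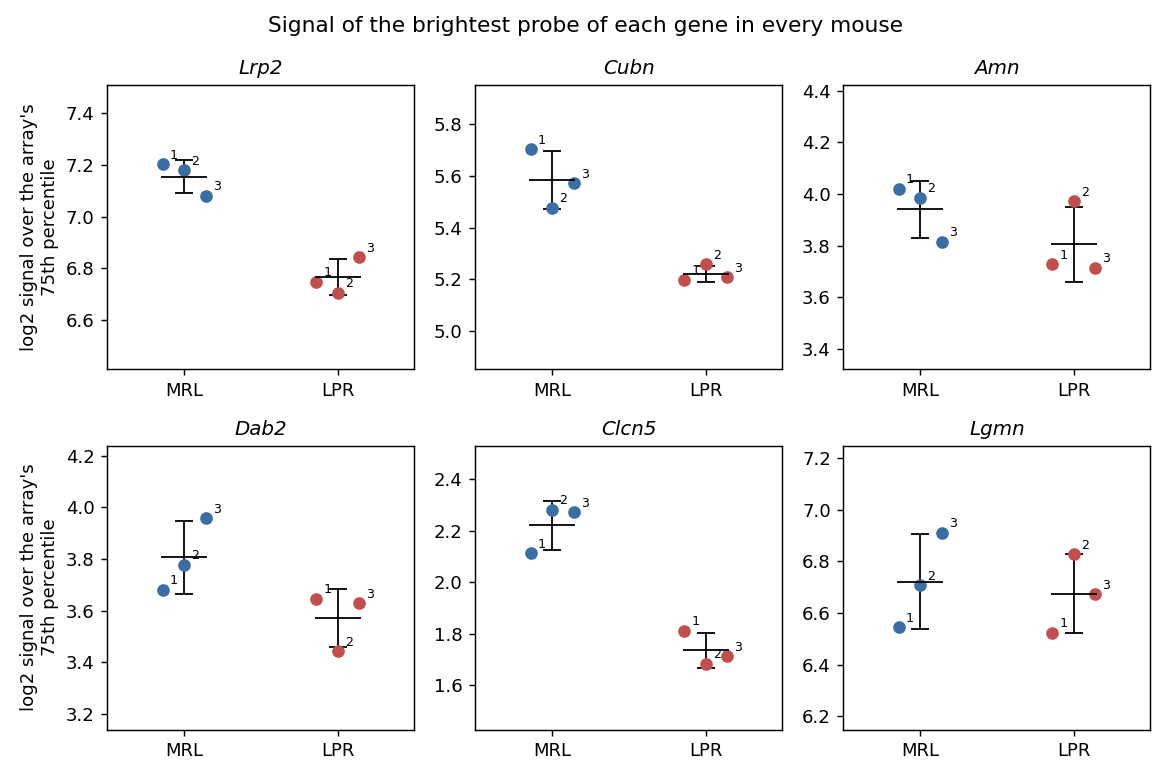
Signal of the brightest probe of each of the 6 genes in every mouse, on the log2 scale over the 75th percentile of the array (vertical axis, with the same span of values in every panel). Points are single mice with their replicate number, and lines are means with the SD of 3 mice. The LPR mice lie below all MRL mice for Lrp2, Cubn, Dab2 and Clcn5, and the groups overlap for Amn and Lgmn.

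The brightest probe of the megalin gene Lrp2 was A_52_P285470 (chr2:69262566-69262625, minus strand, mm9). Its values were 7.20, 7.18 and 7.08 in MRL 1 to MRL 3 and 6.75, 6.71 and 6.84 in LPR 1 to LPR 3. Every LPR mouse was thus below every MRL mouse, and the gap between the groups was wider than the spread within either of them. The change was -0.39 (standard error 0.10, 95% confidence interval -0.63 to -0.15), a mean in LPR mice of 76.4% of that in MRL mice, and it passed the test narrowly (adjusted p = 0.0492). With the place on the slide as a term of the fit, or in the first place alone, LPR 1 is the only LPR mouse compared. The change was then -0.41. Leaving out any 1 of the 6 mice kept the change between -0.43 and -0.36 but ended the call (adjusted p from 0.0764 without LPR 2 to 0.154 without MRL 2).

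The other 4 Lrp2 probes ran the same way without passing. The probe A_66_P137745 starts 172 bases further towards the 3' end, and gave a change of -0.39 (adjusted p = 0.0573), the MRL mice averaging 6.89 ± 0.02 and the LPR mice 6.50 ± 0.12 (SD, n = 3 each). The spliced probe shown above, A_51_P174921, starts 83.3 kb towards the 5' end on mm9. It read 1.35, 1.14 and 1.16 in MRL mice and 0.63, 0.97 and 0.50 in LPR mice, a change of -0.52 (standard error 0.15, adjusted p = 0.0660). Its groups did not overlap, and LPR 2 was nearest to the MRL mice. The remaining probes, A_55_P2871373 and A_55_P2099677, list no RefSeq transcript and gave -0.59 (adjusted p = 0.105) and -0.67 (adjusted p = 0.0522).

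Cubilin had a single probe, A_55_P2047639 (chr2:13197978-13198037, minus strand). Its values were 5.70, 5.48 and 5.57 in MRL mice and 5.20, 5.26 and 5.21 in LPR mice. The LPR mice lay close together and below all MRL mice. The change of -0.36 (standard error 0.10, 95% confidence interval -0.61 to -0.12) did not pass the test (adjusted p = 0.0677), although it passed with normexp background correction (-0.35, adjusted p = 0.0288) and with an intensity trend in the variance (adjusted p = 0.0358). Amnionless, which carries cubilin to the surface, was read by the spliced probe shown above. Amn gave 4.02, 3.99 and 3.81 in MRL mice and 3.73, 3.97 and 3.71 in LPR mice. LPR 2 lay among the MRL mice, and the change was -0.14 (standard error 0.12, 95% confidence interval -0.42 to 0.15, adjusted p = 0.479), as large as the median of all tested probes. It ran from -0.22 without LPR 2 to -0.09 without LPR 3, and was -0.21 with the place on the slide in the fit.

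The 4 probes of Dab2 disagreed in size and call. The brightest, A_51_P157994 (chr15:6389424-6389483, plus strand), read 3.68, 3.78 and 3.96 in MRL mice and 3.65, 3.44 and 3.63 in LPR mice. LPR 1 was only 0.04 below MRL 1, and the change of -0.23 (standard error 0.12, 95% confidence interval -0.52 to 0.05) did not pass (adjusted p = 0.239). The spliced probe A_52_P17534, 15.2 kb towards the 5' end, gave -0.33 (adjusted p = 0.196). The other spliced probe, A_55_P2639170, which starts 22.5 kb towards the 5' end, read -0.25, -0.51 and -0.45 in MRL mice and -0.83, -1.04 and -0.82 in LPR mice. Its groups were well apart, and its change of -0.49 (standard error 0.12) passed (adjusted p = 0.0447).

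The largest change of all 15 probes was that of the remaining Dab2 probe, A_52_P560077 (chr15:6287060-6287119, plus strand). This probe lies 102 kb towards the 5' end of the brightest and lists an Ensembl transcript but no RefSeq transcript. It read 0.31, -0.09 and 0.05 in MRL mice and -0.50, -0.91 and -1.01 in LPR mice, so that the LPR mean was 53.6% of the MRL mean. The change was -0.90 (standard error 0.17, 95% confidence interval -1.31 to -0.49, adjusted p = 0.0190). With the place on the slide in the fit, where only LPR 1 is compared with MRL mice, its change was -0.60. That of A_55_P2639170 was then -0.43. Without MRL 1, MRL 3, LPR 2 or LPR 3 the call of A_52_P560077 ended (adjusted p = 0.0623, 0.0558, 0.0534 and 0.0634). A_55_P2639170 lost its call without any 1 of the 6 mice (adjusted p from 0.0773 without LPR 1 to 0.122 without MRL 1). Averaged over its 4 probes, Dab2 was lower in LPR mice (change -0.49, adjusted p = 0.0224).

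Among the brightest probes of the 6 genes, that of the ClC-5 gene had the lowest adjusted p. Clcn5 was read by A_52_P151974 (chrX:6730950-6731009, minus strand) at 2.11, 2.28 and 2.27 in MRL mice and at 1.81, 1.68 and 1.71 in LPR mice. The lowest MRL mouse was 0.30 above the highest LPR mouse, which was LPR 1. The change was -0.49 (standard error 0.10, 95% confidence interval -0.73 to -0.24), or 71.4% of the MRL mean, and it passed (adjusted p = 0.0282). With the place on the slide in the fit, where only LPR 1 is compared with MRL mice, the change was -0.41. The call ended without MRL 2, MRL 3, LPR 2 or LPR 3 (adjusted p = 0.108, 0.0993, 0.0525 and 0.0914).

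The other Clcn5 probes pointed downwards without passing. A_55_P2180301, 5.65 kb towards the 5' end, gave -0.35 (adjusted p = 0.123), and the dim A_66_P129705 gave -0.46 (adjusted p = 0.127), which became -0.24 under normexp and -0.29 when the place on the slide was a term. The mean of the 3 probes gave -0.43 and did not pass (adjusted p = 0.0582).

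Legumain was the least changed of the 6. The Lgmn probe, A_55_P2108255 (chr12:103632415-103632474, minus strand), read 6.55, 6.71 and 6.91 in MRL mice and 6.52, 6.83 and 6.67 in LPR mice. The mice of both strains were interleaved. The change was -0.05 (standard error 0.14, 95% confidence interval -0.37 to 0.28, adjusted p = 0.848), and its sign turned when MRL 3 or LPR 1 was left out (0.049 and 0.030). Legumain and DAB2 are also made by macrophages, and 9 of the 10 macrophage markers rose in LPR mice, including the complement genes C1qa (3.43) and C1qc (3.43) and the Fc receptor gene Fcgr1 (4.23). The summed level of the 10 was 18.2 to 22.0 times the array's percentile in MRL mice and 58.7 to 64.4 times in LPR mice. Their part in the values of Lgmn and Dab2 was not tested.

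**Figure D2:**
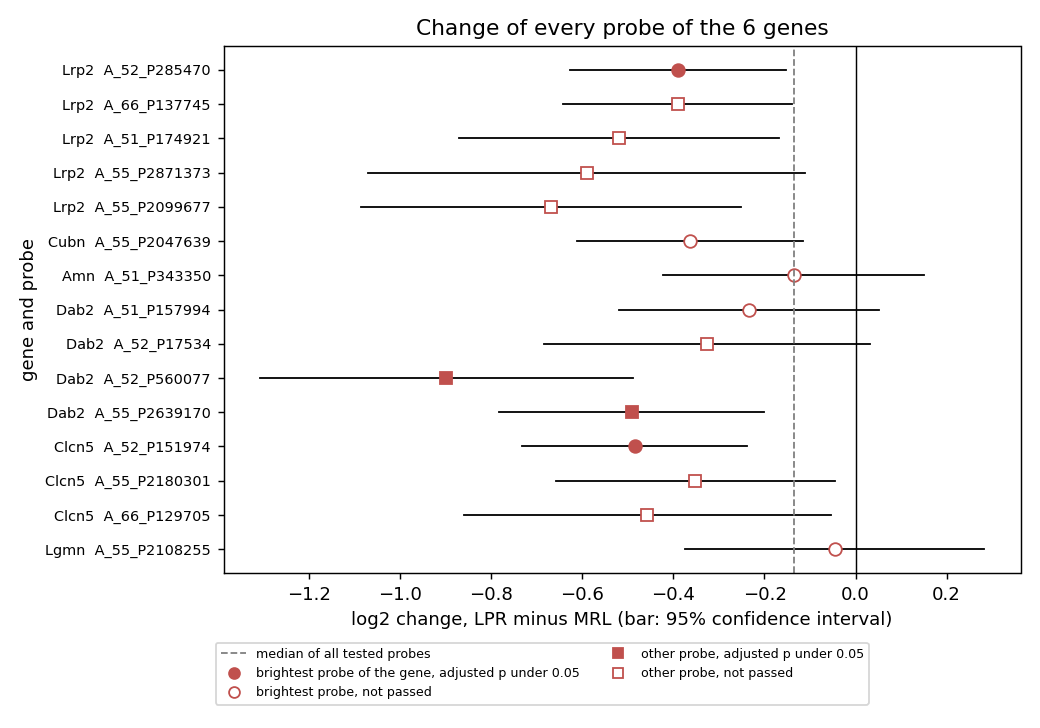
Change of every probe of the 6 genes, LPR minus MRL on the log2 scale (horizontal axis), with its 95% confidence interval from limma. Circles are the brightest probe of a gene, squares its other probes, filled symbols passed at an adjusted p under 0.05, and the dashed line is the median of all tested probes, -0.14. All 15 changes lie below 0, from -0.90 for a Dab2 probe to -0.05 for Lgmn.

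The changes of the 6 genes were set against each other within each array. Lrp2 and Cubn, whose products share the uptake of albumin, differed in their changes by -0.03, with an SD of this difference between mice of 0.11 in MRL mice and 0.09 in LPR mice. The change of Clcn5 minus that of Lgmn was -0.44, and the changes of Amn and Dab2 lay 0.35 and 0.25 above that of Clcn5. In these 3 pairs, and in Lrp2 against Amn with -0.25, the strains did not overlap, and the exact two-sided permutation test gave p = 0.1, the smallest that 3 against 3 mice allow. Over the 15 pairs the smallest p of this exact test after Benjamini-Hochberg adjustment was 0.375, and no pair passed.

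Of all pairs of the 6 genes, Lrp2 and Cubn had the smallest root mean square difference between their centred log2 values over the 6 mice, 0.086. The values were centred over both strains, so this measure takes in the strain changes compared above and adds no separate support. Among the LPR mice, LPR 2 was the lowest for Lrp2 (6.71) and the highest for Cubn (5.26), while MRL 1 was the highest of the MRL mice for both. By the same measure over 17242 named genes above background on all arrays, Lrp2 was closest to Znrd1as, Kif24 and Arhgef39 (0.027 to 0.033), and Cubn to Mrpl35, Tanc1 and Srrm2 (0.021 to 0.029). Amn was closest to Anks1, Myo7b and Nectin1 (0.018 to 0.029), and Dab2 to Zfp59, Fuca2 and Gng12 (0.018 to 0.029). Clcn5 was closest to Lrp6, Tpd52l1 and LOC102641455 (0.030 to 0.038), and Lgmn to Sgf29, Rnf169 and Ccdc166 (0.023 to 0.029). These names describe 6 mice and carry no test. Among 17242 candidates measured in 6 mice, each of the 6 genes had 3 genes nearer to it than any other of the 6 was. So many candidates make this likely for any gene, and nothing is drawn from it.

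The 250 bases before the RefSeq start of Lrp2 and Cubn are printed because this pair had the smallest difference by that measure. They are from GRCm38.p6, on the minus strand, at chr2:69586030-69586279 for Lrp2 and chr2:13491877-13492126 for Cubn, and capitals mark a match to TTCNNNGAA, the GAS element bound by STAT factors.
Lrp2: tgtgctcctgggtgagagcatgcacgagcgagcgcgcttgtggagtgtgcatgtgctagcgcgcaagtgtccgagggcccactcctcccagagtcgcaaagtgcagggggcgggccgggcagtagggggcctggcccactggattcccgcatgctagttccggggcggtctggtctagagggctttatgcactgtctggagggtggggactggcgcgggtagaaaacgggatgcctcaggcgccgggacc
Cubn: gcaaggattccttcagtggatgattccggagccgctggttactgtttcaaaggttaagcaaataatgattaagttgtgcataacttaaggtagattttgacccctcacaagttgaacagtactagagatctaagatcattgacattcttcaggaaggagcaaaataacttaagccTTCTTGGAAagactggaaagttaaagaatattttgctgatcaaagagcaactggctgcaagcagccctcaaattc

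The Cubn match starts 75 bases before the start of the gene, and a match stands 72 bases before the first of the Dab2 starts, whereas 7.02% of 32851 mouse promoters of the same length hold one on either strand. The window of Lrp2 held none of the 5 motifs searched on both strands, the others being the HNF1 motif GTTAAT (6.43% of promoters), the HNF4 motif CAAAGTCCA (0.384%), the E-box CACGTG (6.02%) and the TATA box TATAAA (12.4%). Amn held the E-box 26 bases before its start. At the second of their starts, Dab2 held the HNF1 motif at 65 bases, Clcn5 the TATA box at 172 bases, and Lgmn the E-box at 49 and the TATA box at 37 bases. The windows of Lrp2 and Cubn shared no motif.

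Some other markers of the proximal tubule were lower in LPR mice too. Of 12 markers, none of which is 1 of the 6 genes, 3 fell: Pck1, a gene of gluconeogenesis (-1.45, standard error 0.17, adjusted p = 0.00211), the lactate transporter gene Slc5a12 (-0.84, adjusted p = 0.00828) and the glucose transporter gene Slc5a2 (-0.57, adjusted p = 0.0270). A second probe of Slc5a2 gave -0.24 and did not pass (adjusted p = 0.275). The other 9 did not pass by their brightest probe, although a second probe of Hnf4a, a transcription factor gene of the tubule, fell by 0.60 (adjusted p = 0.0125). Of the 12, 11 had a change below 0, as did 68.6% of all tested probes, and the median was -0.24. The mean of the 12 within an array came to 6.15 ± 0.05 in the MRL mice and to 5.76 ± 0.15 in the LPR mice (SD, n = 3 each), a difference of -0.39, and their summed level was 1120 to 1214 times the percentile in MRL mice and 810 to 988 times in LPR mice. Without Pck1 the mean of the other 11 differed by -0.29. With the place on the slide in the fit only LPR 1 is compared with the MRL mice, so no count is drawn from it.

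Set against the mean of these markers within each array, the changes of Lrp2 and Cubn came to 0.00 and 0.03, those of Dab2 and Amn to 0.16 and 0.26, and that of Clcn5 to -0.09, and in all 5 the mice of both strains overlapped. In Amn they did so only just, with the highest MRL mouse and the lowest LPR mouse both at 0.13 above the MRL mean. Of the 6, Lgmn alone was apart, at 0.34 higher relative to the markers in LPR mice, with an SD of 0.16 in MRL mice and 0.03 in LPR mice and no overlap. The marker mean itself differed by -0.39 between the strains, and the change of Lgmn before this comparison was -0.05. A gene with no change would thus stand higher in LPR mice on this scale. The share of all probes that lie apart on it was not computed. With the MRL mean of this quantity at 0, the values of Lgmn were -0.12, -0.06 and 0.18 in MRL mice and 0.36, 0.37 and 0.31 in LPR mice. Without Pck1 among the markers it was 0.25, again with no overlap, and the other 5 came to -0.09 for Lrp2, -0.07 for Cubn, 0.16 for Amn, 0.06 for Dab2 and -0.19 for Clcn5, all with overlap. In the first place of the slide, where LPR 1 is the only LPR mouse, the values were 0.15 for Lrp2, 0.17 for Cubn, 0.34 for Amn, 0.39 for Dab2, 0.14 for Clcn5 and 0.36 for Lgmn. With 1 mouse left out, Dab2 ranged from 0.04 without LPR 1 to 0.29 without LPR 2, and Clcn5 from -0.21 without LPR 1 to -0.0029 without LPR 2. These are differences between changes with no test, and the part of the tubule markers in the changes of the 6 genes was not tested.

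**Figure D3:**
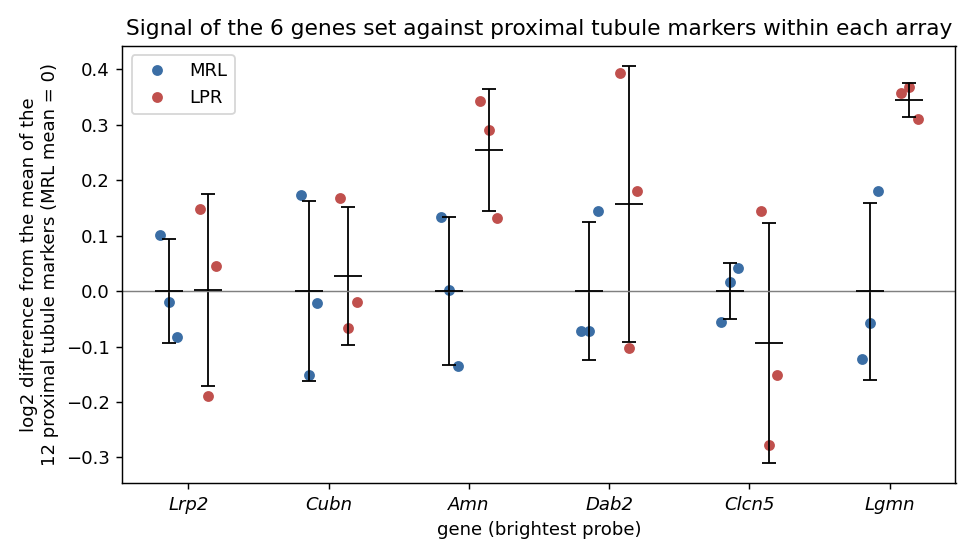
Signal of the brightest probe of each of the 6 genes relative to the mean of 12 proximal tubule markers in the same array, on the log2 scale with the MRL mean of each gene at 0 (vertical axis). Points are single mice, and lines are means with the SD of 3 mice. The strains overlap for Lrp2, Cubn, Amn, Dab2 and Clcn5, and the LPR mice lie above all MRL mice for Lgmn, by 0.34 on average. The marker mean itself differed by -0.39, LPR minus MRL.

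Few genes of the wider pathway passed the test. Of 86 genes in lists for the partners of the receptors, the coat, the endosome, the proton pump, the lysosome and the vitamins that megalin recovers, 85 were tested, 4 fell, 2 rose and 79 did not pass, against 5.47% lower and 7.12% higher of all genes. Of the 85, 62 had a change below 0, as did 68.6% of all tested probes. The lists share no gene with the 6. The 4 lower genes became 10 under normexp, 9 with an intensity trend in the variance and 7 under quantile normalization. Of all 39924 tested probes, 2462 were lower in the main fit and 4498, 3481 and 2456 in these 3 settings. No count is drawn from the fit with the place on the slide, which compares only LPR 1 with the MRL mice. With 1 mouse left out, none was lower without MRL 2, LPR 1 or LPR 3, and 2, 1 and 3 were lower without MRL 1, MRL 3 and LPR 2.

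Among the 8 partners of the receptors, 2 rose and 1 fell, with a median of -0.16. B2m, which encodes the light chain of class I molecules and of the neonatal Fc receptor and is itself a ligand of megalin, rose by 1.87 (adjusted p = 0.000148), from 5.09 ± 0.18 in the MRL mice to 6.96 ± 0.04 in the LPR mice (SD, n = 3 each). Lrp1, a relative of megalin that is also found in macrophages, rose by 0.63 (standard error 0.13, adjusted p = 0.0266). Slc9a3, the sodium-proton exchanger of the brush border, fell by 0.48 (standard error 0.10, adjusted p = 0.0250), from 3.69, 3.77 and 3.87 to 3.29, 3.28 and 3.31, and its second probe fell by 0.78 (adjusted p = 0.0190). Fcgrt, the heavy chain of the neonatal Fc receptor, gave 0.05 (adjusted p = 0.851). Lrpap1, the chaperone of megalin, was named after its values were seen because its probes disagreed: the brightest gave -0.36 (adjusted p = 0.0890) and the other fell by 0.68 (adjusted p = 0.00869).

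In the 18 genes of the clathrin coat and its adaptors none passed, with a median of -0.11 and a range from -0.37 for Myo6, the motor that carries DAB2-bound vesicles inward, to 0.04. A second Myo6 probe fell by 0.62 (adjusted p = 0.0347), and a dimmer probe of Eps15 fell by 0.38 (adjusted p = 0.0490). None of the 18 genes of endosome traffic and recycling passed (median -0.08, from -0.49 for Eea1 to 0.19), and among them the chloride exchanger gene Clcn3, a relative of Clcn5, gave -0.33 (adjusted p = 0.0825) with 1 of its other probes lower (-0.41, adjusted p = 0.0404). Without adjustment the limma p was under 0.05 for 1 of the 18 coat genes and for 3 of the 18 endosome genes, and the test that the study's methods name, after adjustment, called none of the former and 1 of the latter lower. Of 18 subunits of the vacuolar proton pump, which acidifies the same endosomes, 1 fell, Atp6v1a, part of the catalytic head (-0.42, standard error 0.10, adjusted p = 0.0359). Its values were 4.62, 4.71 and 4.64 in MRL mice and 4.19, 4.19 and 4.32 in LPR mice. The median of the subunits was -0.10.

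The 14 lysosomal genes had a median of -0.01, and none passed by its brightest probe, with 1 under 0.05 without adjustment and 1 higher and 1 lower by that test after adjustment. In Ctsa and Scarb2, named here because a second probe disagreed, that probe rose (0.49 and 0.63, adjusted p = 0.0459 and 0.0249). In the list of vitamin carriers and vitamin D enzymes 9 of 10 genes were tested, 2 fell and none rose. Vdr, the vitamin D receptor, fell by 0.99 (standard error 0.24, adjusted p = 0.0387), from 3.28, 3.42 and 4.19 in MRL mice to 2.70, 2.66 and 2.55 in LPR mice, with MRL 3 far above the rest. Ttr, the carrier of retinol-binding protein and thyroxine, fell by 1.39 (adjusted p = 0.0314) at a signal below the percentile in every mouse. Cyp24a1, the enzyme that inactivates vitamin D, gave -2.29 with a standard error of 0.66 (adjusted p = 0.0670). Its range was 2.19 to 4.57 in MRL mice and 0.40 to 2.11 in LPR mice. Cyp27b1, the enzyme that activates vitamin D, spread from -3.94 to 0.69 in MRL mice alone and gave 1.18 (adjusted p = 0.519). The Cyp24a1 and Cyp27b1 genes were singled out after their values were seen.

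Markers of leukocytes moved more than any of these lists. All 5 tested markers of B cells and plasma cells rose, and their summed level was 2.48 to 4.58 in MRL mice and 48.9 to 96.4 in LPR mice, with 5 of 6 T cell markers higher as well (2.49 to 2.89 against 9.09 to 10.4). Of 7 tested markers of tubular injury 3 rose, Cd44 (3.15), Lcn2 (2.14) and Vim (1.47), and all 3 are also found in leukocytes. Havcr1, the kidney injury molecule, gave 0.34 and did not pass (adjusted p = 0.340). None of the 5 podocyte markers passed in limma (1 had an unadjusted p under 0.05), and 1 marker each of the endothelium (Kdr, -0.57) and of the distal nephron and collecting duct (Slc26a4, -0.67) fell. The median of the 7 distal markers was -0.46, further below 0 than that of the 6 genes by their brightest probes, -0.30. The part of these cells in the values of the 6 genes was not tested.

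**Figure D4:**
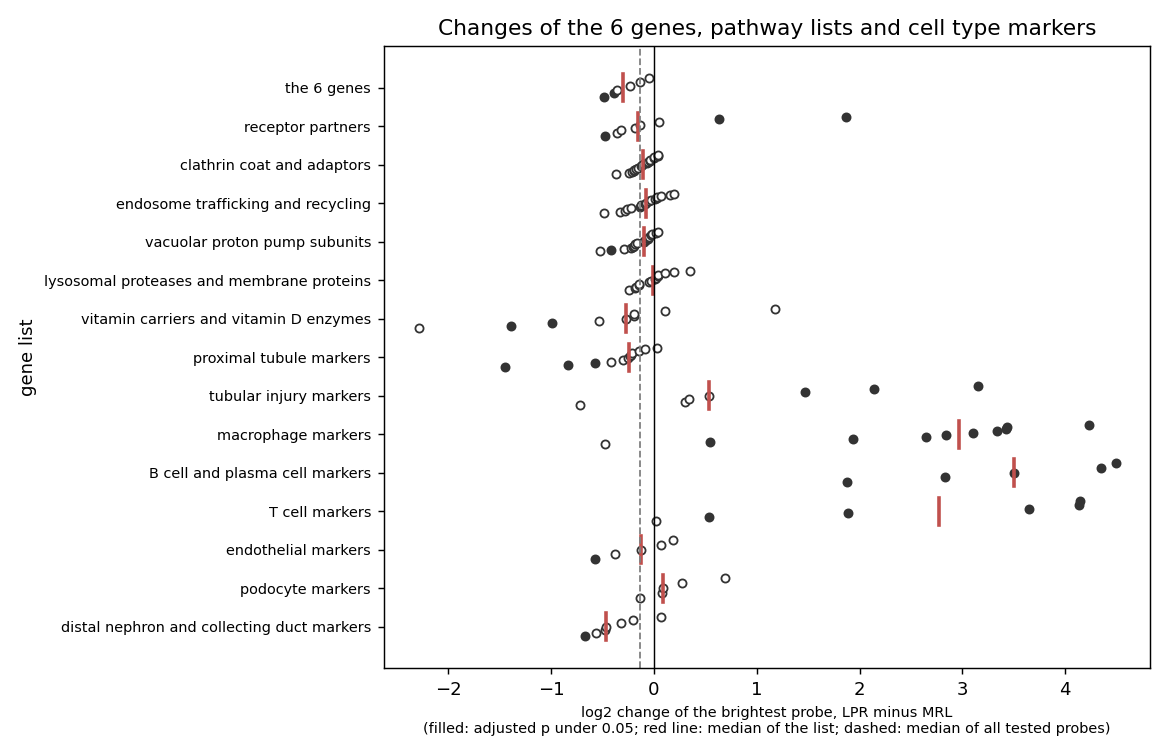
Change of the brightest probe of each gene, LPR minus MRL on the log2 scale (horizontal axis), for the 6 genes, 6 pathway lists and 8 marker lists (rows). Each point is a gene, filled where the adjusted p was under 0.05, the red line is the median of the list and the dashed line the median of all tested probes. The pathway lists centre near the dashed line, with medians from -0.27 to -0.01, and the macrophage, B cell, plasma cell and T cell markers lie far to the right.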

How the data were processed

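Kidney RNA of 3 MRL and 3 LPR mice was labelled with Cy3 and hybridized to 6 single-colour arrays on 1 Agilent slide. The paper names Trizol for the isolation and the labels name an RNeasy kit. The deposited spot intensity is the processed signal of Feature Extraction 12.0.3.1, which subtracts the local background and leaves the arrays unscaled against each other. A second deposited table holds the same intensities divided by a percentile of each array and served as an alternative.

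Control spots and 73 to 90 spots per array marked as outliers were left out, log2 intensities were taken, and the 75th percentile of all spots that are not controls was subtracted. Of 56605 probes, 39924 were tested by limma 3.58.1 in R 4.3.3 with a threshold of 0.05. The number of arrays limits the precision. The p-values measure the spread between 3 mice per strain. Pairs of genes were compared by exact permutation. The 6 genes, the lists and the tests were chosen with earlier results of these data known. The text names the 6 genes, up to 4 genes per list that passed without overlap, and for each of the 6 the 3 genes of most like pattern, limited to names that RefSeq holds. Hnf4a, Fcgrt, Myo6, Eps15, Eea1, Clcn3 and Havcr1 were named after their values were seen, as were the genes so marked in the text.

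The alternatives were other background corrections, scalings, filters, variance models and probe summaries, the 2-tailed t-test named in the methods, the place on the slide or the replicate number in the fit, and leaving out each mouse. A percentile without outlier spots, the median of the tubule markers and their mean without Pck1 were added after seeing the data. The steps were tested on simulated data. Probe positions are those of the array annotation on mm9, and promoters are from RefSeq on GRCm38.p6. Python 3.11.15 and matplotlib 3.10.9 drew the plots.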

Additional observations from a re-analysis of the deposited data

How the results depend on the processing

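The sign of the change stayed below 0 for the brightest probes of Lrp2, Cubn, Amn, Dab2 and Clcn5 under all 23 alternatives, and that of Lgmn turned to 0.049 without MRL 3 and to 0.030 without LPR 1 (range -0.13 to 0.049 over the mice left out). The calls were less stable, and the causes were not tested. Lrp2 lost its call under quantile normalization (-0.38), a median shift (-0.38) and the percentile over detected probes (-0.36). The deposited divided values (-0.39, adjusted p = 0.0503), no filter on dim probes (-0.39) and each mouse left out (-0.43 to -0.36) also ended it. Clcn5 lost its call without a filter (-0.49), over the mean of its probes (-0.43) and with 4 of the 6 mice left out (-0.54 to -0.46 over all 6). With the place on the slide in the fit or the first place alone, where LPR 1 is the only LPR mouse compared, both genes changed by -0.41. Over the other alternatives the adjusted p ranged from 0.0161 to 0.154 for Lrp2 and from 0.00831 to 0.108 for Clcn5. Cubn passed under normexp (-0.35) and an intensity trend (-0.36), and Dab2 over the mean of its probes (-0.49).

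The 4 probes of the 6 genes called lower became 9 under normexp, 8 with an intensity trend and 7 when every array had to be above background. They became 2 with the percentile of detected probes, 1 without a filter and 0 to 3 with a mouse left out. The calls over all probes moved the same way. Of 39924 probes, 2462 were lower in the main fit, 4498 under normexp and 3481 with an intensity trend. With the percentile of detected probes 1800 were lower, and with a mouse left out 760 to 2269. When every array had to be above background 3003 of 35999 were lower, and without a filter 1093 of 56605. By the methods' t-test, 9 of 15 had p under 0.05 on log2 values and 9 on linear values, where 18.0% and 18.5% of all probes were lower. After Benjamini-Hochberg adjustment 2 remained in each case. The paper ran this test only on genes picked for a large fold change, and its methods name no such adjustment. The largest change of the 15 probes was 1.86-fold, below the paper's limit. The 2 genes called lower became 1 under quantile normalization, a median shift, the percentile of detected probes and the deposited values. They became 0 without a filter and 0 to 1 with a mouse left out. None of the 15 probes was higher under any alternative.

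The labels do not say that replicate numbers pair the mice. The deviations of same-numbered mice correlated at 0.115, 0.0203 and 0.00516, which cannot show whether they do. With the replicate number as a block, 1 probe and 0 of the 6 genes stayed below the threshold, the changes of Lrp2 (-0.39, adjusted p = 0.106) and Clcn5 (-0.49, adjusted p = 0.0791) being the same in size, and 0 receptor partners, 0 pump subunits and 1 vitamin gene were lower.

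Receptor partners called higher were 1 without a filter, over the mean of probes and by the t-test on log2 or linear values. With a mouse left out 1 to 2 were higher. Those called lower were 2 under normexp, quantile normalization and the mean of probes, 0 without a filter, and 0 to 1 with a mouse left out. Coat genes called lower were 1 under normexp and with a trend. Endosome genes called lower were 2 under normexp and with a trend and 1 over the mean of probes and by either t-test. Pump subunits called lower were 3 under quantile normalization, and 2 under normexp and with a trend. They were 0 under a median shift and without a filter, and 0 to 1 with a mouse left out. Lysosomal genes called higher were 1 under normexp and by either t-test, and 1 was lower by either t-test. Vitamin genes called lower were 0 without a filter and by either t-test, and 0 to 2 with a mouse left out.

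With 3 mice per strain, the standard errors of the 15 probes were 0.10 to 0.20, and the largest change that did not pass was -0.67. Over all probes, 2606 were higher and 2462 lower, against 2199 and 1117 with the replicate block and 2532 and 4498 under normexp. Except for LPR 1, the place on the slide cannot be told apart from the strain. Against the tubule markers, the Lgmn difference was 0.36 with their median and 0.25 with their mean without Pck1, against 0.34. Each Cubn, Amn and Lgmn value rests on a single probe.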
